A study of Mus musculus with 37 samples.

Results

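Untreated neutrophils were compared with 4 other untreated mouse myeloid cell types in RNA sequencing data, to describe which genes set the resting neutrophil apart. The 10 libraries behind the comparison, 2 for each cell type, were among 37 in the series. For every gene the neutrophil value was set against the highest, the lowest and the mean of the other 4 values, and the 6470 genes with a value of 10 or more in any of the 5 untreated groups were kept, out of 6509 genes held. All cells came from C57Bl6cJ mice and had received neither interleukin-10 (IL-10) nor lipopolysaccharide (LPS). Neutrophils were taken from pooled bone marrow on a Percoll gradient and kept overnight with GM-CSF to mature them, so they are cultured marrow cells and not blood neutrophils. Macrophages were elicited in the peritoneum with thioglycollate and selected by adherence, splenic dendritic cells (sDCs) were enriched with magnetic beads, and mast cells and eosinophils were grown from bone marrow. One untreated macrophage library was a new analysis of an earlier library, per its label. The treated groups used further below received IL-10 at 100 ng/ml, LPS at 100 ng/ml or both, and eosinophils have no group with IL-10.

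Neutrophils are short-lived phagocytes that are made in the bone marrow and are the first cells to reach a site of infection. As they mature they fill, in order, azurophil granules with proteases and myeloperoxidase, specific granules with collagenase and other host-defence proteins, and gelatinase granules. They leave the marrow and migrate under the control of chemokine receptors, of which Cxcr2 is the best known. C/EBP proteins and PU.1 are the transcription factors most closely tied to the granulocyte programme.

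The deposited values are authors' means of 2 libraries without the libraries themselves, so no spread, test or interval could be given, and every difference below is a description. Values are GC-corrected tag counts, and differences are on the log2(value + 1) scale, which understates changes of low genes. A gene was called when the difference reached 2-fold. In bulk RNA, fewer cells of a type and less RNA per cell cannot be told apart.

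The promoters of the 3 azurophil granule genes and of Mmp8 are shown because these genes lead the granule groups described next. Each is the 250 bases before the RefSeq gene start in GRCm38.p6, on the plus strand, at chr11:87793534-87793783 for Mpo, chr10:79886062-79886311 for Elane, chr10:79879417-79879666 for Prtn3 and chr9:7558179-7558428 for Mmp8. Capitals mark matches, on either strand, to AGGAAGT for PU.1 and TTGCNNAA for C/EBP; the 2 motifs do not overlap in these sequences.
Mpo: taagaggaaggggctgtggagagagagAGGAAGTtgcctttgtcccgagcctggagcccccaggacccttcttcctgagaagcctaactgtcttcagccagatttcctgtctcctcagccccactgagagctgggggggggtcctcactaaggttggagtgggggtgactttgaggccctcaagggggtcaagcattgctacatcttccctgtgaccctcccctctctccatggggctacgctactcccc
Elane: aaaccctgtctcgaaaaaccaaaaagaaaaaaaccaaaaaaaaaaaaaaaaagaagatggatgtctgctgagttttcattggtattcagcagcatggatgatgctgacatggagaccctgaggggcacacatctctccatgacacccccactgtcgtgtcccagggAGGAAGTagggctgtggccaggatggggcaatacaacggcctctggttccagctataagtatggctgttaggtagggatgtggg
Prtn3: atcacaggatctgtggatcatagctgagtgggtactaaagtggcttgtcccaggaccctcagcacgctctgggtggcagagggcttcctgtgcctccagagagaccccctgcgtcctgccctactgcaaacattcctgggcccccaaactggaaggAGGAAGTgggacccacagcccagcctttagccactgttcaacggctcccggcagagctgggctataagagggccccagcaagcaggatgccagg
Mmp8: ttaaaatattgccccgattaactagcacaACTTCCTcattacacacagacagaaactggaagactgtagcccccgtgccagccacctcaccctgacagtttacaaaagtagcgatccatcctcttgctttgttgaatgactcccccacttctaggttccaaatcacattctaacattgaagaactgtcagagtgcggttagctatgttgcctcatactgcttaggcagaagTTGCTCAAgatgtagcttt

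All 4 held the PU.1 letters, and Mmp8 also held the C/EBP letters. Other named genes were searched too. In their RefSeq windows Chi3l3, Lrg1 and Vpreb3 held the PU.1 letters, and Cxcr2, Retnlg, Stfa1, Stfa2, Pax5 and Ebf1 did not. Retnlg and Stfa1 held the C/EBP letters. Mmp9 matched no RefSeq promoter, and its window from the NCBIM37 genome, described below, held only the C/EBP letters. The PU.1 letters began 223 bases before the start in Mpo, 84 in Elane, 94 in Prtn3 and 221 in Mmp8, where the C/EBP letters began 19 bases before it. The result for Mpo depended on the start used: in the window before its highest transcript in the NCBIM37 genome, a choice made after the RefSeq matches were seen, neither motif was present, while Elane, Prtn3 and Mmp8 held the same letters there. Other named genes also changed: in these windows Stfa2 held the PU.1 letters, and Chi3l3 and Ebf1 the C/EBP letters, which their RefSeq windows lacked. Over the genes called higher in neutrophils, only 157 of 206 (76.2%) matched a RefSeq promoter, so a share over that set is void as a check. The values were 17.8% with the PU.1 letters and 10.2% with the C/EBP letters, beside 9.73% and 9.48% of the kept genes. With the NCBIM37 windows, which covered all 206, the shares were 12.6% for each motif, beside 7.95% and 7.78% of kept genes. A match is a string of letters and does not show binding.

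In the comparison with the highest of the other cell types, 206 genes (3.18% of the kept genes) were called higher in neutrophils. Of these, 95 were at least 4-fold and 36 at least 16-fold above the next cell type, 34 were under 10 in all 4 others, and 95 had a neutrophil value above 1000. The called gene nearest the threshold was Acvrl1 (a log2 difference of 1.0075) and the nearest not called was Tmco7 (0.9964); at the filter, 4932411N23Rik was kept with a highest value of 10 and Col8a1 was left out with 9. By the same rule 587 genes (9.07%) were highest in macrophages, 435 (6.72%) in mast cells, 539 (8.33%) in sDCs and 193 (2.98%) in eosinophils. The plot of all genes places the called genes along the whole range of neutrophil values.

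**Figure D1:**
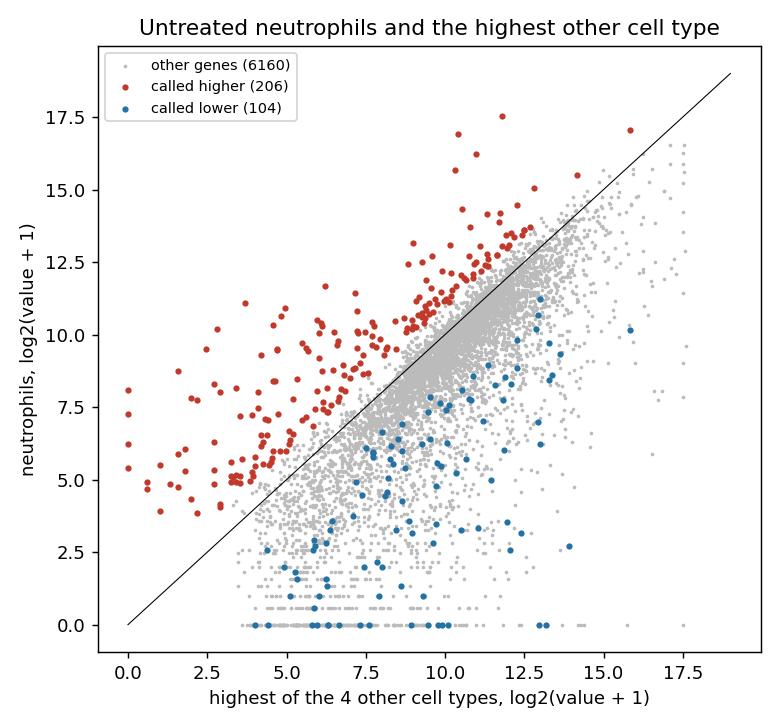
Each point is a gene kept in the comparison, with the highest of the 4 other untreated cell types on the x axis and untreated neutrophils on the y axis, both as log2(value + 1); the line marks equal values. The 206 genes called higher lie above the line and the 104 called lower lie below it, mostly at low neutrophil values.

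The azurophil granule genes Mpo, Elane and Prtn3 were high in neutrophils and next highest in sDCs. Mpo (chr11:87607083-87617915, NCBIM37), which encodes the myeloperoxidase that makes hypochlorous acid, had a value of 22826 in neutrophils, 4890 in sDCs, 582.5 in mast cells, 149 in eosinophils and only 1 in macrophages. Elane (chr10:79349057-79350961), neutrophil elastase, had 13402 in neutrophils, 1767.5 in sDCs, 24 in mast cells, 8 in eosinophils and 0 in macrophages. Prtn3 (chr10:79337221-79345919), proteinase 3, had 8779.5 in neutrophils, 1134 in sDCs, 303 in eosinophils, 109 in mast cells and 14 in macrophages. The differences from sDCs were 2.22, 2.92 and 2.95, so the marker Mpo was highest in the cells labelled neutrophils but was not restricted to them. Of 18 listed azurophil genes 6 were held, and all 6 were kept. Of these 3 were called higher, beside 3.18% of all kept genes. The lysosomal nuclease Dnase2a was the 1 called lower, beside 1.61% of all kept genes, with 904 in neutrophils and 1912.5 to 4952 in the others. The median difference of the 6 from the mean of the other cell types was 2.63, beside -0.08 over all kept genes.

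Mmp8 and Mmp9, of the specific and gelatinase granules, stood further above the next highest cell type than the azurophil genes did. Mmp8 (chr9:7558429-7568486), neutrophil collagenase, had 122455 in neutrophils, 1362.5 in sDCs, 1356 in macrophages, 370 in eosinophils and 187 in mast cells, a difference of 6.49 from the next highest. Mmp9 (chr2:164766280-164781350), gelatinase B, had 77310.5 in neutrophils, 2005.5 in macrophages, 656 in sDCs, 229 in eosinophils and 16 in mast cells, a difference of 5.27. These were among the 25 largest differences of all genes, as were Chi3l3 and Lrg1. Chi3l3, a chitinase-like protein, had 187739 in neutrophils against 175.5 in eosinophils, 351 in mast cells, 1908 in macrophages and 3549 in sDCs. Its main transcript was at 185338, the highest value of every column. Whether values were cut off there is not known, so the size of its difference is uncertain. Reads may also be shared with its near-identical relatives. Lrg1, a secreted leucine-rich glycoprotein, had 3305.5 in neutrophils and 6 to 74 in the others. Chi3l1 had 5587.5 against 1.5 to 454.5, and the haemoglobin-binding protein Hp had 15147.5 against 3366 in macrophages and 61.5 to 542 elsewhere. Of 18 listed specific granule genes 9 were held and 8 kept, and of 14 listed gelatinase genes 5 were held and kept. Called higher were 5 of 8 kept specific and 2 of 5 kept gelatinase members (Mmp9 and Vnn3), beside 3.18% of all kept genes. None was called lower, beside 1.61%. Mmp25, a membrane-bound metalloproteinase, was not called, because sDCs had 8123 and neutrophils 7718.5. Arg1, arginase, had 5 in neutrophils and 3358.5 in macrophages.

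**Figure D2:**
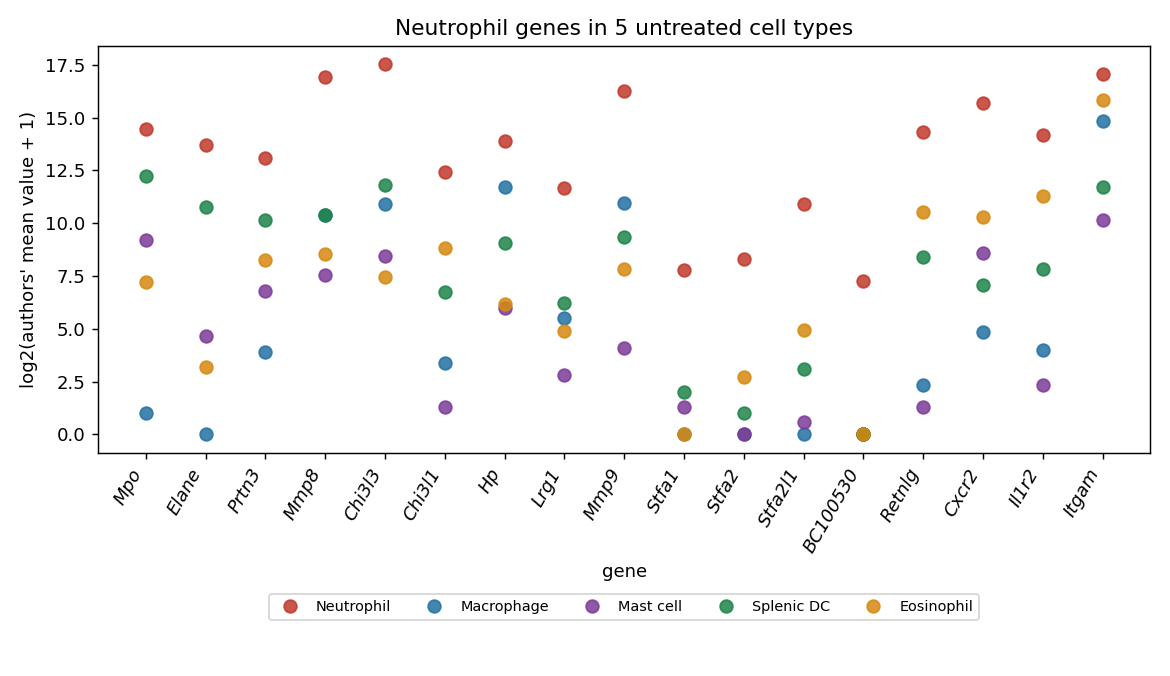
Each point is the authors' mean of 2 libraries for a gene in an untreated cell type, as log2(value + 1). All 17 genes shown were taken from those called higher, so neutrophils are the highest point for each because of that choice. The next point is 1.23 lower for Itgam and 7.28 lower for BC100530.

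The stefins, small cysteine protease inhibitors whose genes lie together on chromosome 16, were high in neutrophils and at 30 or less in every other untreated cell type. Stfa2l1 had 1942 in neutrophils, 30 in eosinophils, 7.5 in sDCs, 0.5 in mast cells and 0 in macrophages. Stfa2 had 311 against 0 to 5.5, Stfa1 221.5 against 0 to 3, and Stfa3 66 against 0 to 2.5. BC100530 had 154 and was listed at 0 in all 4 others. These copies are very similar, so reads could have been divided among them and their separate values are uncertain. Retnlg, a resistin-like secreted protein, had 20356 in neutrophils, 1497 in eosinophils and 1.5 to 339 elsewhere. With it, 6 of 7 kept members of the cytosolic and stefin list were called higher, beside 3.18% of all kept genes. Of the 26 genes listed there, 7 were held.

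Receptors for chemokines, cytokines and fungal or bacterial products were the next group, with 8 of 26 kept members called higher and none lower, beside 3.18% and 1.61% of all kept genes. Cxcr2 (chr1:74200563-74207812), the receptor for neutrophil-attracting CXC chemokines, had 52728 in neutrophils, 1265 in eosinophils, 383 in mast cells, 136 in sDCs and 28 in macrophages, a difference of 5.38. Il1r2, the decoy receptor for interleukin-1, had 18376.5 in neutrophils, 2538.5 in eosinophils, 230 in sDCs, 4 in mast cells and 15 in macrophages. Both had eosinophils as the next highest cell type. Cxcr1 was called at a low level, 94.5 against 35.5 in macrophages and 0 to 4.5 elsewhere. Clec7a, the beta-glucan receptor dectin-1, had 45878 in neutrophils and 18533.5 in macrophages. Il17ra had 11063.5 against 1849.5 to 3895, and Gpr84 had 1257 against 505 in macrophages and 1 to 13.5 elsewhere. Mrgpra2a and Mrgpra2b, near-identical receptors, had 44 and 686 and were also called. Ly6g (chr15:74987123-74989169), the antigen by which mouse neutrophils are usually sorted, was not called, with 161.5 in neutrophils, 188.5 in eosinophils, 13 in sDCs and 0 in macrophages and mast cells. Csf2rb, the shared beta chain of the GM-CSF receptor, had 26721 in neutrophils and 140192 in eosinophils.

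Few adhesion, oxidase and transcription factor genes were called against the highest other cell type, but 10 of 22, 5 of 9 and 14 of 23 were at least 2-fold above the mean of the others, beside 15.9% of all kept genes. Neutrophils had the highest value for 9, 4 and 10 of them, beside 12.6% of all kept genes. Itgam, the CD11b integrin chain, was called with 136889 in neutrophils, 58531 in eosinophils, 29511 in macrophages, 3307.5 in sDCs and 1154 in mast cells. It and Arrb2, a receptor-desensitizing arrestin, were the called members among 22 adhesion and migration genes, beside 3.18% of all kept genes. None of 9 NADPH oxidase members was called: Cybb, the catalytic subunit of the oxidase, had 94864 in neutrophils and 140085 in macrophages. Among 23 transcription factor genes 2 were called higher, beside the same 3.18%. Rara, a retinoic acid receptor, had 6794 against 656.5 to 3160.5, and Tfec had 2516 against 6 to 580. Among 15 eicosanoid genes Alox12, Ggt5 and Ggt1 were called higher, beside 3.18% of all kept genes. Ggt1, a gamma-glutamyl transferase, had 271 in neutrophils, was listed at 0 in the other 4, and had the largest difference of all genes at a pseudocount of 1, but not at 10, where 1600029D21Rik had 6.63 and Ggt1 4.81. Fbp1 and Cox4i2, at 74 and 41, were likewise listed at 0 in the other 4.

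Some markers of other lineages were also higher in the neutrophil preparation. Of 12 kept B and plasma cell markers 6 were called higher, beside 3.18% of all kept genes, none was lower and none was at 0, with a median difference from the mean of the others of 4.88. Pax5, the B-lineage transcription factor, had 705.5 in neutrophils and 0 to 25 elsewhere. Vpreb3, a pre-B cell gene, had 717.5 against 0 to 4.5, and Ebf1 had 1261.5 against 0 to 68. Vpreb3 and Pax5 stood among the 25 largest differences of all genes. The summed level of the list over the 4 neutrophil groups was 17673.5 to 31433.5, against 7011 to 9318 in sDCs, 8302.5 to 11481 in mast cells, 9606 to 14310 in macrophages and 16921 to 17613 in eosinophils. A sum follows its most abundant members, so it does not give the level of a typical marker. The untreated median log2 value was 9.99 in neutrophils, 8.42 in sDCs, 4.81 in macrophages, 2.92 in eosinophils and 1.66 in mast cells, so sDCs were second by the median and lowest by the sum. Lymphocytes are named in the methods as a usual contaminant of this preparation; their part in these results was not tested.

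Erythroid and megakaryocyte markers did the same for 5 of 15 kept members, beside 3.18% of all kept genes, with none lower and none at 0. Hbb-b1 had 4485.5 in neutrophils, 1155 in sDCs and 2.5 to 228 elsewhere, and Hba-a2 had 3150.5 against 745 in sDCs and 0 to 218.5 elsewhere, with reads possibly shared between Hba-a1 and Hba-a2. The summed level was 19250.5 to 23016 in neutrophils, 19484.5 to 20469.5 in eosinophils, 3942 to 7896 in macrophages, 3714 to 4901 in sDCs and 43086.5 to 49360.5 in mast cells. The part of erythroid cells was not tested. No T and NK cell marker of 12 was called, beside 3.18% of all kept genes, and 3 were at least 2-fold above the mean of the others and 1 below. Their sum was 664 to 724.5 in neutrophils, 19303.5 to 22906 in sDCs and 5930.5 to 9239.5 in mast cells. It was 313.5 to 430.5 in macrophages and 198 to 205 in eosinophils. The untreated median log2 value gave another order, with neutrophils (4.86) below sDCs (8.30) but above mast cells (2.59), macrophages (2.59) and eosinophils (1.16). No marker of macrophages, sDCs, mast cells or eosinophils was called, of 10, 11, 12 and 8 kept. With lists this short, that is near the 3.18% higher and 1.61% lower of all kept genes. At least 2-fold above the mean of the others were 4 dendritic cell and 2 eosinophil markers, and at least 2-fold below were 4 and 3. The shares of all kept genes were 15.9% above and 16.7% below. Of 10 macrophage markers Marco and Timd4 were at 0 in untreated neutrophils, beside 4% of all kept genes, and 5 were at least 2-fold below the mean of the others. The macrophage list summed to 12166.5 in neutrophils, 9556 in sDCs, 8439.5 in mast cells, 15578.5 in eosinophils and 383505 in macrophages. Of 12 mast cell markers Tpsb2, Tpsab1, Tpsg1, Mrgprb1 and Tph1 were at 0, beside the same 4%, and 7 were at least 2-fold below the mean of the others. Another 3 were at least 2-fold above it, among them Alox5, 5-lipoxygenase, with 14759.5. That list summed to 20341 in neutrophils, 369 in macrophages, 9566.5 in sDCs, 41164.5 in eosinophils and 710952.5 in mast cells. Epx, eosinophil peroxidase, was present at 19128.5 in neutrophils beside 185338 in eosinophils. There it was at the highest value of the column, so the size of the gap is uncertain.

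**Figure D3:**
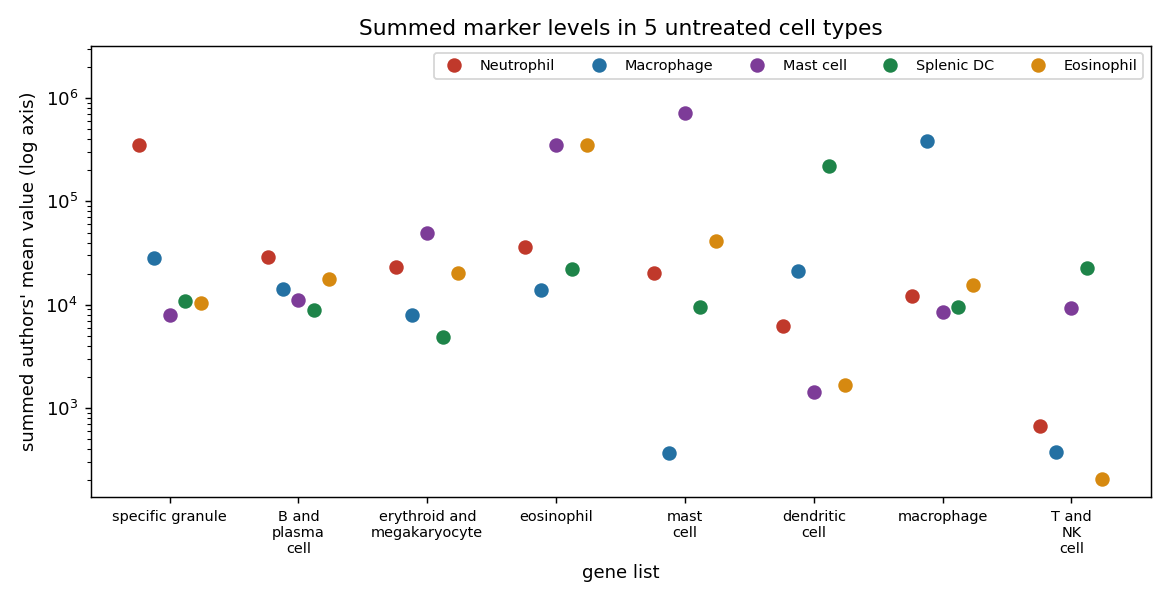
Each point is the sum of the authors' mean values over the kept members of a list in an untreated cell type, on a log axis. Neutrophils are highest for the specific granule list (350616.5) and for the B and plasma cell list (28663), and lie between mast cells (9239.5) and macrophages (375.5) for the T and NK cell list (664). A sum follows the most abundant members of a list, and list medians can order the cell types differently.

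Eosinophils were the cell type most like neutrophils. Over the 6470 genes Pearson's r of the log2 values was 0.89 with eosinophils, 0.78 with sDCs, 0.74 with mast cells and 0.74 with macrophages; genes are not independent replicates, and neutrophils, eosinophils and mast cells all came from bone marrow. Neutrophils were at least 2-fold above eosinophils for 16.9% of genes and below for 11.9%. Against macrophages the shares were 21.0% and 23.7%, against mast cells 22.1% and 22.1%, and against sDCs 20.7% and 22.2%. Of 35 cell cycle genes 31 were highest in neutrophils or eosinophils, beside 30.2% of all kept genes. Only 8 were highest in neutrophils, beside 12.6% of all kept genes. At least 2-fold above the mean of the other 4 cell types were 25, beside 15.9% of all kept genes. None was called against the highest or the lowest. Top2a, a topoisomerase of dividing cells, had 8354.5 in neutrophils, 9978.5 in eosinophils and 284 to 548.5 elsewhere. With eosinophils left out, the genes called higher in neutrophils numbered 498 (7.70%). Of the 206 called genes, the next highest cell type was sDCs for 65 (31.6%), eosinophils for 62 (30.1%), macrophages for 55 (26.7%) and mast cells for 20 (9.71%), where among all kept genes the highest of the 4 was in sDCs for 22.5%, eosinophils for 23%, macrophages for 26.9% and mast cells for 27.5%.

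Against the mean of the other 4 cell types, 1026 genes (15.9%) were at least 2-fold higher and 1080 (16.7%) at least 2-fold lower, so the wider comparison was nearly even in direction. Fewer genes were below every other cell type. There were 104 (1.61%). Of these 16 were at 0 in neutrophils, beside 4% of all kept genes, and 77 were under 100, for which no share over all genes was taken. Their highest value was in mast cells for 43, where among all kept genes mast cells were the highest of the 4 others for 27.5%. Tmem14a had the largest such difference at a pseudocount of 1, but not at 0.1, where Slco2b1 had -6.15 and Tmem14a -3.93, nor at 10, where Htra3 had -1.92 and Tmem14a -1.81. Tmem14a had 2 in neutrophils and 32 to 74.5 elsewhere. Slco2b1, an organic anion transporter, was listed at 0 against 7 to 960.5. Sel1l3 had 8.5 against 46 to 1441. At higher levels P2rx4, an ATP-gated ion channel, had 640 in neutrophils, 2478 in eosinophils, 2894.5 in sDCs, 4827.5 in mast cells and 12673 in macrophages. Il2rg, the common cytokine receptor gamma chain, had 1622 against 3386.5 to 7752.5, and its partner kinase Jak3 had 272 against 552.5 to 1477.5. The chemokine Cxcl12 was listed at 0 in neutrophils and had 2 to 488.5 elsewhere, so its call rests on 0 against 2, near the floor. P2rx4, Il2rg, Jak3 and Cxcl12 were picked after their values were seen.

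The called genes were followed into the treated cells, where each treatment was applied to all the cell types compared. With IL-10 alone 192 of 206 (93.2%) were called again, beside 7.76% of all kept genes, with LPS alone 126 (61.2%) beside 2.81%, and with both 148 (71.8%) beside 7.26%. There were 3 other cell types with IL-10, since eosinophils have no such group, and 4 with LPS alone. Over those same 3 other cell types, 454 of 498 untreated calls (91.2%) recurred with IL-10 and 360 (72.3%) with both. In all 3 treatments 115 of 206 were called.

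The granule genes differed among themselves in how they behaved with LPS, and the receptors Cxcr2 and Il1r2 were lower with it. Mpo had 22826 in untreated neutrophils, 25600 with IL-10, 20675 with LPS and 20878 with both. Cxcr2 had 52728, 59650, 3210 and 19833 in the same order, and its difference from the next cell type was 5.38, 7.02, 1.72 and 5.70. The IL-10 groups have no eosinophils, the next highest cell type for Cxcr2, and without eosinophils the untreated difference was 7.10. Mmp8 had 122455, 115516, 17265 and 29556. The values of Mpo thus stayed within a narrow range while those of Cxcr2 and Mmp8 were lowest with LPS alone. Mmp9 had 77310.5, 94912, 12701.5 and 18626, Retnlg 20356, 20116.5, 3943.5 and 5592, and Il1r2 18376.5, 33488.5, 3350.5 and 8186. Stfa2 had 311, 396.5, 1234.5 and 2146, and Chi3l1 5587.5, 6066, 16760 and 32654, so these 2 were higher in both groups with LPS. Some calls were lost with LPS: Il12a, a subunit of interleukin-12, had 147 in untreated and 1054 in LPS-treated neutrophils but its difference from the highest other cell type there was -1.53. Of the 104 lower genes 68 (65.4%) were called lower again with IL-10, beside 5.67% of all kept genes, 35 (33.7%) with LPS beside 1.24%, and 48 (46.2%) with both beside 4.13%. With eosinophils left out there were 376 lower genes untreated (5.81%), of which 279 (74.2%) recurred with IL-10 and 175 (46.5%) with both.

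**Figure D4:**
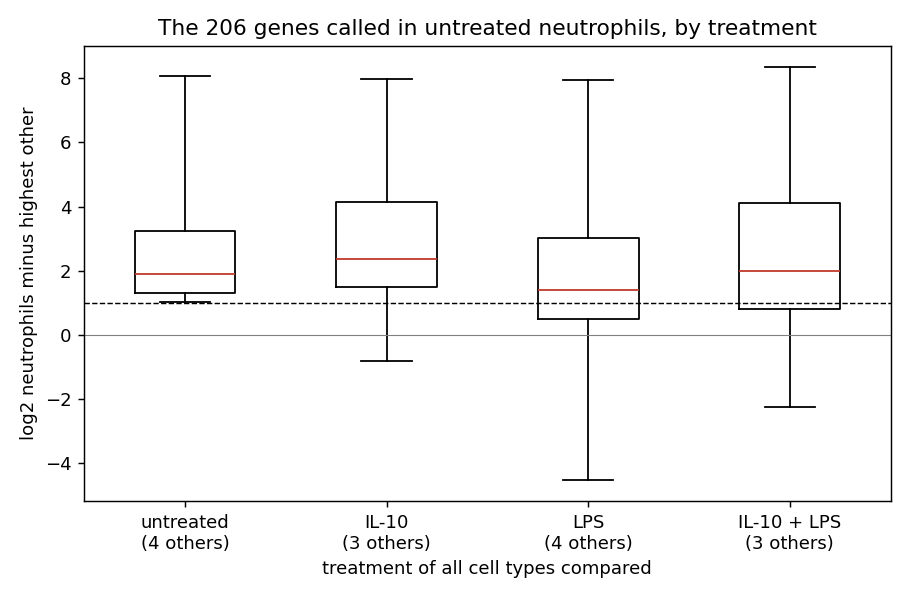
Boxes show the quartiles and median, and whiskers the full range, of the log2 difference between neutrophils and the highest other cell type for the 206 genes called untreated; the dashed line is the 2-fold threshold. The median was 2.35 with IL-10 and 1.97 with both, against 3 other cell types (2.16 untreated without eosinophils), and 1.39 with LPS alone, against 4 (1.88 untreated), and the untreated box is above the threshold because that comparison chose the genes.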

How the data were processed

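RNA sequencing libraries of 5 mouse myeloid cell types were grouped by their labels. The deposited values, used here as a score, were made by the authors: per the methods and labels, tags were aligned with Bowtie 0.12.9 and estimated with RSEM 1.2.1 against Ensembl transcripts on mm9, corrected for GC content, and averaged over 2 libraries. The table holds 18 group columns behind 36 libraries; 1 further sample was not used here. The copy used ends in 1 broken line, and 22 of 17015 transcripts (0.129%) without a gene name were left out. All columns share the same highest value, 185338. Whether values were cut off there is not known, so differences that involve it are uncertain in size. The depth of each library is unknown from these values, and column sums were 10458285.5 to 11392064.

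Transcripts were summed per gene (Python 3.11.15, pandas 2.3.3), a pseudocount of 1 was added, and a 2-fold difference was the call. The code for the calls was tested on simulated data, made by planting known differences in the columns. That checks the code and not whether the calls are right. With no replicate values no test was made. The 25 largest differences above the highest cell type, the 15 largest below the lowest and the members of 29 gene lists were the genes to be named. Members and lists were chosen with earlier results of these data known. Many listed genes were not among the 6509 held, so a list describes only its held members. Promoters came from RefSeq (GRCm38.p6); since under 80% of the called genes matched, windows from the NCBIM37 genome and GENCODE transcripts were added after the RefSeq shares had been seen, and both are given. Gene coordinates are NCBIM37.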

Additional observations from a re-analysis of the deposited data

How the results depend on the processing

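No paired analysis was possible because the table holds group means and no replicate columns, and no library could be left out. The 206 higher genes became 320 without sDCs, 498 without eosinophils, 314 at 1.5-fold, 95 at 4-fold and 594 as single transcripts. The 104 lower genes became 55 with a pseudocount of 10, 170 without macrophages, 182 without sDCs, 376 without eosinophils, 241 at 1.5-fold, 20 at 4-fold and 467 as single transcripts. Against the mean of the others, the 1026 higher genes became 527 at 4-fold, and the 1080 lower genes 1710 at 1.5-fold and 416 at 4-fold. With a pseudocount of 10, 8 of the 15 named lower genes were still called. Among genes at least 4-fold above, mast cells were next highest for 3.16%. The median of the mast cell list turned to 0.56 without mast cells, which is how that alternative is built. Over the alternatives, list medians passed 2-fold 9 times and fell under it 4 times, and 276 of them kept their side. The other 85 values of the comparisons moved by less than 1.5 times. The motif shares are among them (12.6% in the added windows, for both motifs). They were set against the RefSeq shares of 17.8% and 10.2%, which are void, so no stability can be read from them. Values at the column maximum and the absence of any spread also limit these results.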

Other observations

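Genes of general cell machinery differed little between untreated neutrophils and the mean of the other cell types. The median difference was 0.15 over 27 mitochondrial ribosome genes, -0.10 over 20 proteasome genes, -0.09 over 11 aminoacyl-tRNA synthetases and -0.18 over 11 vacuolar ATPase genes, and no member was called higher or lower than all 4. Among 52 respiratory chain and ATP synthase genes the median was 0.16 and 2 were called higher, near the 3.18% of all kept genes. These were Cox4i2 and Cox6a2, isoforms of cytochrome c oxidase subunits that are best known from other tissues. Cox6a2 had 159 in neutrophils and 77.5 in macrophages. Of 116 solute carrier genes 4 were called higher and 4 lower, near the 3.18% and 1.61% of all kept genes, with a median of -0.07. Of 20 apoptosis regulators 1 was called higher, beside the same 3.18%. It was Fas, a death receptor, with 1744 in neutrophils and 54 to 794 elsewhere. Of 24 glycolysis and glycogen genes none was called. Of 14 histone genes 3 were called higher, beside 3.18% of all kept genes. Among them was Hist1h4i with 280.5 against 16.5 to 104, and histone genes have near-identical copies. Of 15 cytosolic ribosomal protein genes and 3 MHC class II genes none was called. Of 21 stress and immediate early genes Dusp6 and Gclm were called higher, beside 3.18% of all kept genes.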
